A study of Mus musculus with 9 samples.

Results

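The genes described here are 38 mouse genes of glycolysis and of the response to low oxygen: glucose and lactate carriers, glycolytic enzymes, the switch between pyruvate and lactate, the hypoxia-inducible factors with their oxygen sensors, and effectors that hypoxia induces. They were chosen by name, and each symbol was matched through the GENCODE M21 annotation to a row of the count and FPKM tables. All 38 were found, through 39 identifiers because Aldoa carries a second one, among the 56398 features of the tables.

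Glycolysis turns glucose into pyruvate in the cytosol, and lactate dehydrogenase turns pyruvate into lactate so that the pathway can go on without mitochondrial respiration. When oxygen is scarce, the prolyl hydroxylases encoded by the Egln genes no longer mark the alpha subunits of the hypoxia-inducible factors for destruction, and the stabilised factors raise transcription of glucose carriers, glycolytic enzymes and genes that limit respiration. Many tumours run glycolysis at a high rate even with oxygen present, while the colonic epithelium lies next to a nearly oxygen-free lumen and is known for a low oxygen tension in health.

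RNA-seq was done on 9 samples of BALB/c mice, a common inbred laboratory strain. The AC group was 3 colon tumours raised by injecting CT26 cells, an established line of mouse colon carcinoma from the same strain, in mice given Astragalus and Curcuma phaeocaulis Valeton mixed 2:1 at 6 g/kg once a day. The model group was 3 CT26 tumours from mice given saline on the same schedule, and the sham group was 3 samples of healthy colon. The labels give neither the site of injection nor the ages. They do not state whether each sample is its own animal, so the p-values here speak only of how these libraries spread, which could be technical variation. Both tumour groups come from 1 cell line in a host that keeps its own stroma and immune cells, so tumour RNA mixes carcinoma and host cells.

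Total counts per library ran from 15690038 to 23476056, and 3 counts, taken as the floor of detection, equal 0.128 to 0.191 CPM (counts scaled to a common library size). All 38 genes passed the filter on low counts in every comparison. Markers of colonic epithelium summed to 271 to 907 CPM in AC tumours and 191 to 528 CPM in model tumours, against 19349.9 to 26989.7 CPM in sham colon, so the sham samples carried the markers of their labelled tissue. The highest tumour sums were in AC sample 3 (907 CPM) and model sample 1 (528 CPM). Sham sample 1 stood apart from the other sham samples. Its B cell markers summed to 736 CPM, against 94.8 and 42.8 CPM in sham samples 2 and 3, and its smooth muscle markers to 286 CPM, against 1733 and 1878 CPM. Counts of sham samples 2 and 3 differed by a chi-square of 3.06 per degree of freedom, and those of sham sample 1 by 100.5 and 119 from them.

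Each pair of groups was tested with edgeR's quasi-likelihood test on its own 6 libraries, with Benjamini-Hochberg adjustment over all tested genes and a call at an adjusted p under 0.05. In AC tumours against sham colon, 11 of the 38 genes were called higher, 20 lower and 7 in neither direction. In model tumours against sham colon, 11 were called higher, 13 lower and 14 in neither direction. The background is wide, since 68.2% of 17832 genes were called in AC tumours (35.5% higher, 32.7% lower) and 69.7% of 18228 genes in model tumours (36.8% higher, 32.9% lower). Of the 38 genes, 28.9% were higher and 52.6% lower in AC tumours, and 28.9% higher and 34.2% lower in model tumours. In model tumours these shares were near the background, and what the data show there is which genes went up and which went down. Libraries of tumour and sham did not overlap for 11 genes higher and 19 lower in AC tumours (background 75.8%, or 40.5% higher and 35.3% lower) and for 11 higher and 13 lower in model tumours (background 76.9%, or 41.3% higher and 35.6% lower). Both comparisons use the same sham libraries and are therefore not independent. In AC tumours against model tumours none of the 38 was called, and neither was any of the 17137 genes tested (0%).

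The median log2 fold change of the 38 genes was -0.55 in AC tumours over sham colon, where the median of all tested genes was 0.10. In model tumours over sham colon it was -0.25, with 0.12 for all genes. These medians depend on how libraries are scaled. Without scaling factors the median of all genes moved by 0.65 in AC tumours and 0.61 in model tumours, and the genes called were then 13 higher and 9 lower in AC tumours (background 49.5% higher, 23.1% lower) and 14 higher and 8 lower in model tumours (background 49.7% higher, 24.2% lower). Without sham sample 1, 12 were called higher and 24 lower in AC tumours (background 38.7% and 36.9%), and 12 higher and 17 lower in model tumours (background 42.4% and 36.4%).

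**Figure D1:**
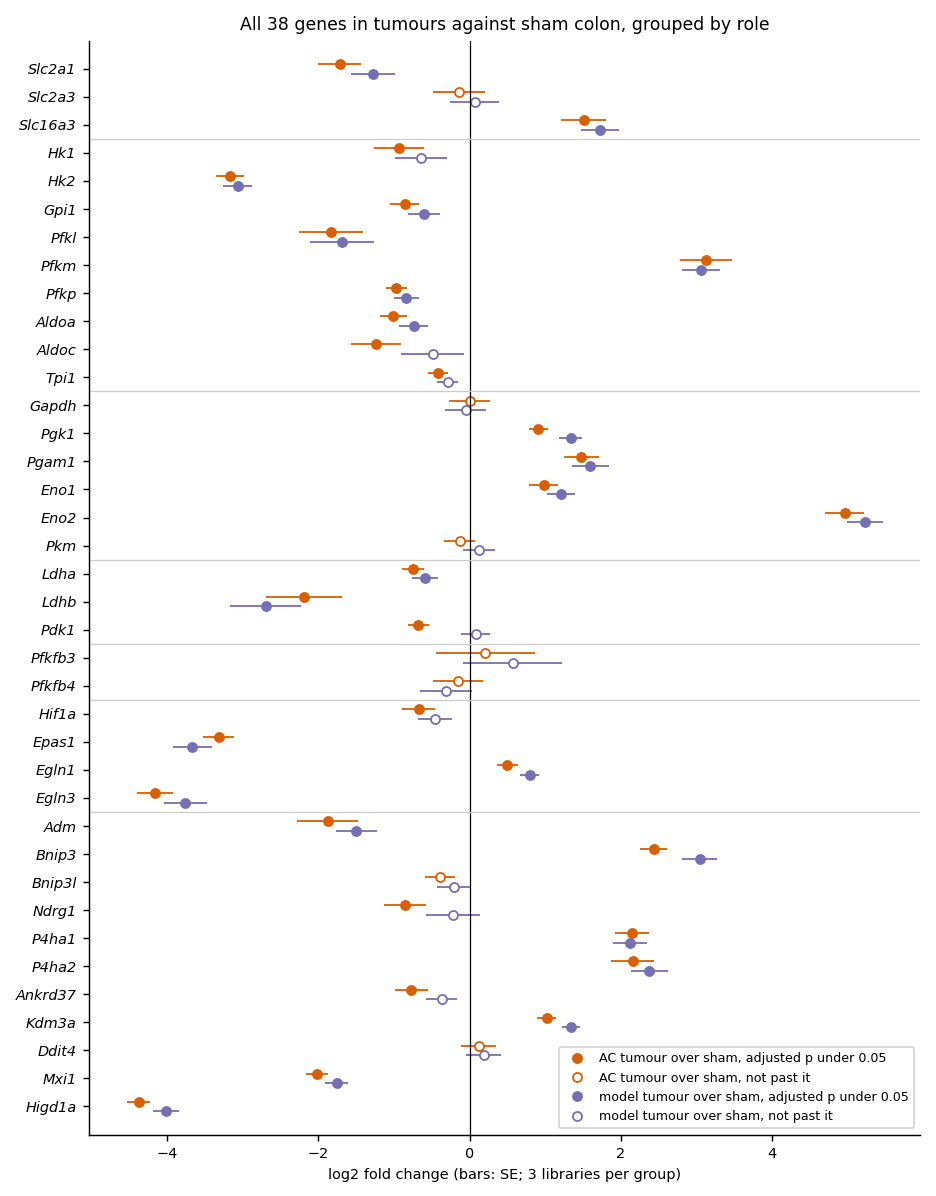
Log2 fold changes of all 38 genes (x axis, bars are SE) for AC tumours over sham colon (upper point of each row) and model tumours over sham colon (lower point), 3 libraries per group, with filled points for an adjusted p under 0.05 in edgeR and grey lines between roles. Eno2, Pfkm and Bnip3 lie farthest to the right and Higd1a, Egln3 and Epas1 farthest to the left. Among called genes, without scaling factors Gpi1 and Ldha change sign in model tumours and Tpi1 in AC tumours, as Hif1a does in AC tumours on the FPKM scale.

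The factors and oxygen sensors of the hypoxia pathway did not move together. Epas1, which encodes the alpha subunit of hypoxia-inducible factor 2 and is prominent in endothelium and epithelium, had 23.1, 20.1 and 17.5 CPM in AC tumours, 18.5, 16.1 and 12.1 CPM in model tumours, and 148, 226 and 235 CPM in sham colon. Every tumour library lay below every sham library. The log2 fold change was -3.32 (SE 0.206, adjusted p = 5.67e-05, edgeR) in AC tumours and -3.67 (SE 0.260, adjusted p = 6.22e-05, edgeR) in model tumours, each over sham colon. Hif1a, encoding the alpha subunit of hypoxia-inducible factor 1, had 161, 150.4 and 142 CPM in AC tumours, 162, 197 and 163 CPM in model tumours, and 311, 197 and 209.7 CPM in sham colon. Its transcript was called lower in AC tumours over sham colon (log2 -0.67, SE 0.219, adjusted p = 0.0315, edgeR), a call that was lost whichever AC library was left out (adjusted p up to 0.952 over all alternatives) and whose sign turned to 0.02 on the FPKM scale. In model tumours the log2 fold change of Hif1a over sham colon was -0.46 (SE 0.227, adjusted p = 0.115, edgeR). Hypoxia-inducible factors are known to be controlled mainly at the protein level, which these data do not measure.

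Egln3, a prolyl hydroxylase and itself a known hypoxia target, had 3.85, 6.14 and 6.03 CPM in AC tumours, 9.34, 6.32 and 5.08 CPM in model tumours, and 103, 92.4 and 92.1 CPM in sham colon. Tumour and sham libraries did not overlap, and the gene was 17.9-fold lower in AC tumours (log2 -4.16, SE 0.241, adjusted p = 5.18e-05, edgeR) and 13.6-fold lower in model tumours (log2 -3.76, SE 0.285, adjusted p = 7.67e-05, edgeR). Egln1, the main oxygen sensor of most cells, went the other way, with 79.9, 97.8 and 73.9 CPM in AC tumours, 94.3, 113 and 98.6 CPM in model tumours, and 53.0, 63.9 and 61.4 CPM in sham colon. Its rise was smaller, at log2 0.50 (SE 0.138, adjusted p = 0.0166, edgeR) in AC tumours and 0.80 (SE 0.125, adjusted p = 0.00139, edgeR) in model tumours. The call in AC tumours was lost without AC sample 2, without sham sample 2 or 3, and with DESeq2 or its size factors, with an adjusted p of up to 0.0699.

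The 11 effectors split between directions: 4 were called higher and 5 lower in AC tumours over sham colon, and 4 higher and 3 lower in model tumours over sham colon. In AC tumours that was 36.4% higher and 45.5% lower, beside 35.5% and 32.7% of all tested genes. In model tumours it was 36.4% and 27.3%, beside 36.8% and 32.9%, so a split is not particular to the effectors. The 4 that rose in each comparison were Bnip3, P4ha2, P4ha1 and Kdm3a. Bnip3, which marks mitochondria for removal by autophagy, had 104, 109 and 90.2 CPM in AC tumours, 126, 194 and 137 CPM in model tumours, and 21.1, 15.2 and 19.3 CPM in sham colon. All tumour libraries exceeded all sham libraries, by 5.44-fold in AC tumours (log2 2.44, SE 0.177, adjusted p = 8.69e-05, edgeR) and 8.26-fold in model tumours (log2 3.05, SE 0.231, adjusted p = 7.71e-05, edgeR). An antisense gene, Gm45507, covers 22.3% of the exon bases of Bnip3 and had 0 counts of its own.

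P4ha1 and P4ha2 encode the catalytic subunits of the prolyl hydroxylase that lets collagen fold. P4ha1 had 178, 183 and 158 CPM in AC tumours, 148, 166 and 189 CPM in model tumours, and 50, 34.2 and 32.1 CPM in sham colon. P4ha2 had 37.5, 39.5 and 22.1 CPM in AC tumours, 28.9, 42.1 and 43.5 CPM in model tumours, and 5.52, 7.37 and 9.27 CPM in sham colon. For both genes the tumour and sham libraries did not overlap. P4ha1 rose by log2 2.15 (SE 0.220, adjusted p = 2.98e-04, edgeR) in AC tumours and 2.12 (SE 0.225, adjusted p = 2.84e-04, edgeR) in model tumours, and P4ha2 by 2.16 (SE 0.288, adjusted p = 8.42e-04, edgeR) and 2.38 (SE 0.244, adjusted p = 2.44e-04, edgeR) in the same order. Markers of fibroblasts, which make collagen, summed to 1059 to 1299 CPM in AC tumours and 1423 to 1681 CPM in model tumours, against 92.7 to 161 CPM in sham colon, and their part in the rise of these genes was not tested. Kdm3a, a histone demethylase, was 2.02-fold higher in AC tumours (log2 1.02, SE 0.129, adjusted p = 6.94e-04, edgeR) and 2.53-fold higher in model tumours (log2 1.34, SE 0.118, adjusted p = 1.29e-04, edgeR).

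Higd1a, a small mitochondrial protein that binds respiratory complexes, fell the most of the 38 genes in each comparison with sham colon. Its levels were 25, 26.4 and 23.4 CPM in AC tumours, 34.3, 28.3 and 32.6 CPM in model tumours, and 555, 528 and 477 CPM in sham colon. The gene was 20.8-fold lower in AC tumours (log2 -4.38, SE 0.155, adjusted p = 2.59e-05, edgeR) and 16.2-fold lower in model tumours (log2 -4.02, SE 0.176, adjusted p = 1.92e-05, edgeR). An antisense gene, Gm47112, shares 22.5% of its exon bases, and the strand setting of the counting is not given, but that gene had only 170 counts against 24081 for Higd1a over the 9 libraries.

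Mxi1, a transcription factor that opposes Myc, had 67.1, 56.0 and 55.8 CPM in AC tumours, 61.9, 81.9 and 69.8 CPM in model tumours, and 206, 258 and 266 CPM in sham colon. Adm, the vasodilator peptide adrenomedullin, had 2.66, 5.31 and 1.94 CPM in AC tumours, 3.65, 5.46 and 3.63 CPM in model tumours, and 9.17, 13.7 and 13.6 CPM in sham colon. Both lay below sham colon in every tumour library. Mxi1 changed by log2 -2.02 (SE 0.145, adjusted p = 8.29e-05, edgeR) in AC tumours and -1.76 (SE 0.151, adjusted p = 1.24e-04, edgeR) in model tumours, and Adm by -1.88 (SE 0.408, adjusted p = 0.00627, edgeR) and -1.50 (SE 0.273, adjusted p = 0.00272, edgeR) in the same order.

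Of the other effectors, Ndrg1 and Ankrd37 were called lower in AC tumours over sham colon, at log2 -0.85 (adjusted p = 0.0311, edgeR) and -0.77 (adjusted p = 0.0174, edgeR). Their values in model tumours over sham colon were -0.22 (adjusted p = 0.613, edgeR) and -0.37 (adjusted p = 0.157, edgeR). Both calls depended on single libraries: that of Ndrg1, a differentiation-related stress gene, was lost whichever AC library was left out and without sham sample 2 or 3, and that of Ankrd37 without AC sample 1 or 2. Both were also lost without scaling factors, at log2 -0.19 (adjusted p = 0.536, edgeR) for Ndrg1 and -0.13 (adjusted p = 0.619, edgeR) for Ankrd37, and on the FPKM scale, and that of Ankrd37 without the filter on low counts. Ankrd37 also shares 22.7% of its exon bases with Lrp2bp on the opposite strand. Bnip3l, a mitophagy receptor related to Bnip3, had 127 to 147 CPM in AC tumours, 134 to 185 CPM in model tumours and 155 to 225 CPM in sham colon, and Ddit4, an inhibitor of mTOR signalling, 34.6 to 57.8, 37.5 to 57.1 and 36.5 to 44.9 CPM in the same order. Neither was called in any comparison, but without scaling factors Ddit4 was called higher in AC tumours (log2 0.77, adjusted p = 0.0271, edgeR) and model tumours (log2 0.78, adjusted p = 0.0170, edgeR) over sham colon.

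The core letters that hypoxia-inducible factors bind, ACGTG or GCGTG, were looked up on both strands in RefSeq windows of 300 bases (GRCm38.p6, 250 before to 50 after a start site). Windows were at hand for 34 of the 38 genes, and Bnip3l, Epas1, Ndrg1 and Slc2a3 had none. The letters were found in 40 of 51 windows of these genes (78.4%), against 43.8% of 32851 windows of all genes. The windows of the 38 genes are rich in CpG, with a median of 21 against 7, and among all windows with at least 21 CpG 74.0% held the letters. The 2 words differed in this respect. ACGTG was in 52.9% of the windows of these genes and 29.0% of the CpG-rich windows, and GCGTG in 54.9% and 64.0%. Counted by gene, 91.2% of these genes had a match, against 75.3% of genes with CpG-rich windows. The 2 sets are not alike. These genes had 51 windows for 34 genes, and the CpG-rich set 8148 windows for 7298 genes, so more windows per gene could hold a match. The CpG-rich windows also had a higher median, of 29 CpG against 21. Either word was in 77.8% of the windows of genes higher in model tumours over sham colon, in 82.4% of those of genes lower and in 75.0% of those of genes not called. The share was thus similar whichever way the genes went. The palindrome CACGTG, which overlaps ACGTG on both strands, was in 9.80% of the windows of these genes. It was in 7.15% of all windows and 11.6% of the CpG-rich ones. The 250 bases before the start site are shown for a pair of genes that rose (Bnip3 and P4ha1) and a pair that fell (Higd1a and Egln3) in tumours, 5′ to 3′ on the gene's strand, with the matches to either word on either strand in capitals. Bnip3 lies on chr7:138909507-138909756 (minus strand), P4ha1 on chr10:59323046-59323295 (plus), Higd1a on chr9:121857797-121858046 (minus) and Egln3 on chr12:54203875-54204124 (minus).
Bnip3: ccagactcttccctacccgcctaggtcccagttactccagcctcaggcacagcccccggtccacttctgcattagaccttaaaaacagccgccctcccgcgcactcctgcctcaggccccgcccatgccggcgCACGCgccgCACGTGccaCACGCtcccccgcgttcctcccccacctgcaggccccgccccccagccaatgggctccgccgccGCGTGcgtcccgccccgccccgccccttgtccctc
P4ha1: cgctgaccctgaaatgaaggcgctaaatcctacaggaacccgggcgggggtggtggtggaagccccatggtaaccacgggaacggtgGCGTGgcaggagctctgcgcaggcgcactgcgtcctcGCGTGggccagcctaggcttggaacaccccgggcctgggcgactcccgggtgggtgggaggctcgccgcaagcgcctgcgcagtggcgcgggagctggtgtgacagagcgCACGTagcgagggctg
Higd1a: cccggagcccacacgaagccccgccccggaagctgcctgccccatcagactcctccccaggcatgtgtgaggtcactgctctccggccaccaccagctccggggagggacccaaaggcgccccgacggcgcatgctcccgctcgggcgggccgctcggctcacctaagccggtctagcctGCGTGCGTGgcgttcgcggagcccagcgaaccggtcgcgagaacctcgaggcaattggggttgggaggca
Egln3: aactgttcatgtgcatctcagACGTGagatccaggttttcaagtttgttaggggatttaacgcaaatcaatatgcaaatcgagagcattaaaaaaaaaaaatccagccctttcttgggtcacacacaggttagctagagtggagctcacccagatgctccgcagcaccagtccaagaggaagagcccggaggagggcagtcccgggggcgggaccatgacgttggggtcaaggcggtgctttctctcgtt
The stretch of Bnip3 holds 5 matches, that of P4ha1 3, that of Higd1a 2 and that of Egln3 1. The window of Eno2, the gene with the largest rise, holds 0 matches. A match describes the letters only and is not evidence of binding.

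**Figure D2:**
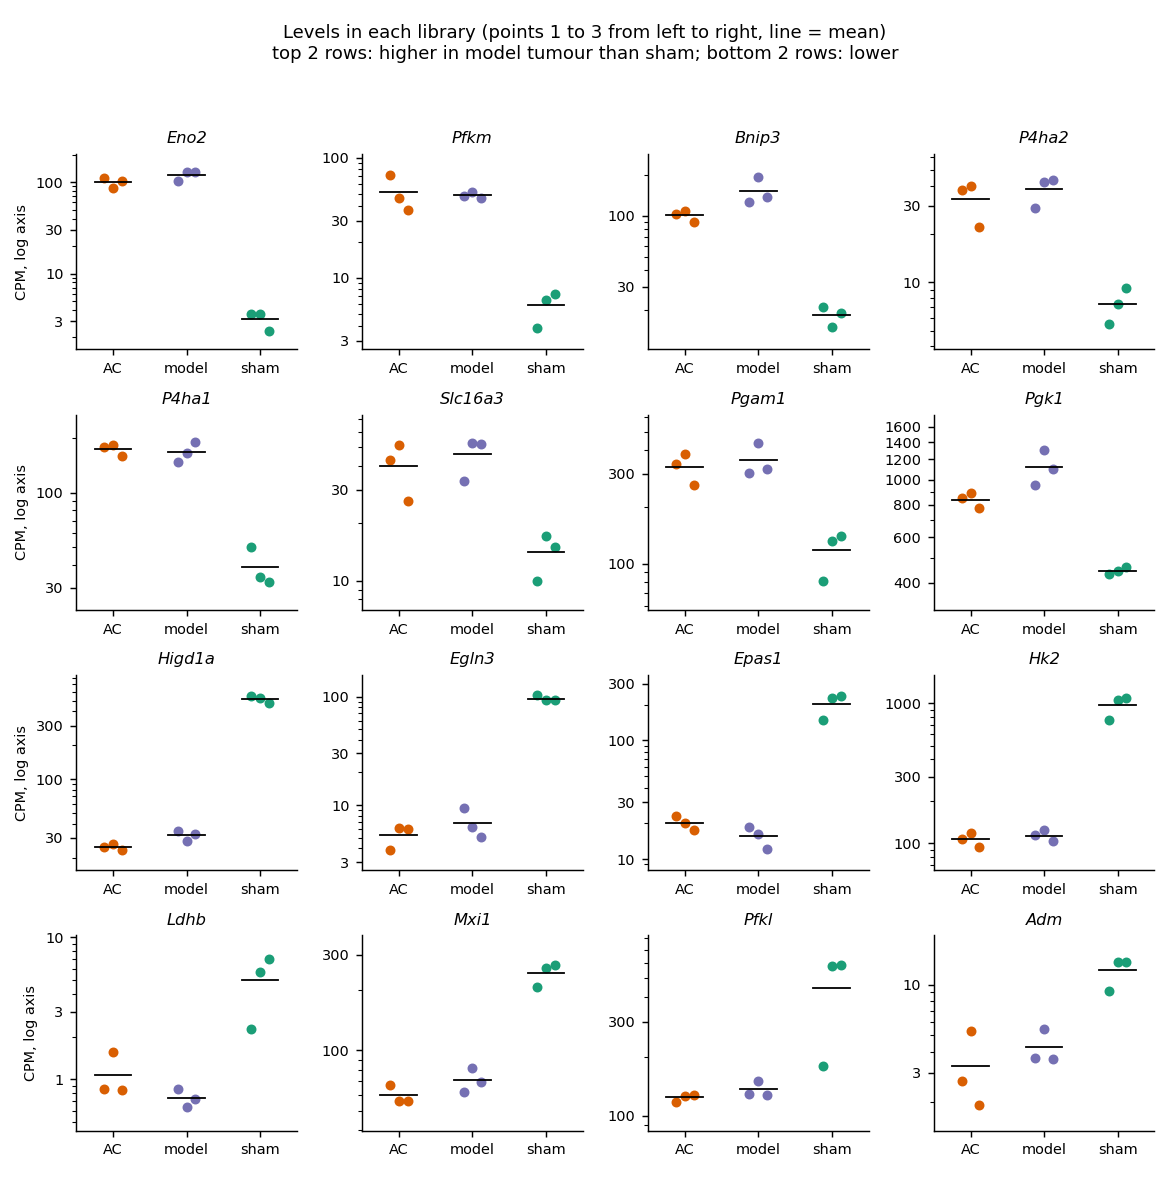
CPM in each library (log y axes, points are libraries 1 to 3 from left to right, lines are means) for the 8 genes that rose most and the 8 that fell most in model tumours over sham colon, with AC tumours, model tumours and sham colon from left to right. Tumour and sham libraries do not overlap in any panel, and sham sample 1 lies nearest to the tumours for Pfkl (178 CPM) and Ldhb (2.25 CPM).

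Among the carriers, Slc16a3, the lactate exporter MCT4, rose while the glucose carrier Slc2a1 fell in tumours against sham colon. Slc16a3 had 42.7, 51.3 and 26.1 CPM in AC tumours, 33.3, 52.5 and 52.3 CPM in model tumours, and 9.95, 17.1 and 15.1 CPM in sham colon. The groups did not overlap, with log2 fold changes of 1.51 (SE 0.298, adjusted p = 0.00422, edgeR) in AC tumours and 1.73 (SE 0.255, adjusted p = 0.00111, edgeR) in model tumours. Slc2a1, the basal glucose carrier GLUT1, had 105, 128 and 91.8 CPM in AC tumours, 131, 178 and 126 CPM in model tumours, and 213, 430.2 and 433 CPM in sham colon. Its log2 fold changes of -1.72 (SE 0.281, adjusted p = 0.00193, edgeR) in AC tumours and -1.28 (SE 0.290, adjusted p = 0.00695, edgeR) in model tumours kept their sign without scaling factors, where the call in model tumours was lost (largest adjusted p over all alternatives 0.0727). Slc2a3, the glucose carrier of neurons and leukocytes, was at 3.46 to 4.80 CPM in AC tumours, 4.59 to 5.02 CPM in model tumours and 3.61 to 6.38 CPM in sham colon and was not called.

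The upper steps of glycolysis, which spend ATP to split glucose into triose phosphates, were mostly lower in tumours than in sham colon with scaling factors. Of 9 genes, 8 were called lower and 1 higher in AC tumours, and 5 lower and 1 higher in model tumours. That was 88.9% lower in AC tumours and 55.6% in model tumours, beside 32.7% and 32.9% of all tested genes. Most of these lower calls depended on scaling. Without scaling factors 2 genes, Hk2 and Pfkl, were called lower in each comparison, and on the FPKM scale 1, Hk2. Pfkm was called higher throughout. Of all tested genes, 23.1% were called lower without scaling factors in AC tumours and 24.2% in model tumours, so 2 of 9 genes is near the background. Hk2, the inducible hexokinase that traps glucose in the cell, had 108, 119 and 94.0 CPM in AC tumours, 114, 124 and 103 CPM in model tumours, and 767, 1057 and 1087 CPM in sham colon. The groups were far apart, with a 9.02-fold lower level in AC tumours (log2 -3.17, SE 0.181, adjusted p = 5.08e-05, edgeR) and an 8.42-fold lower level in model tumours (log2 -3.07, SE 0.189, adjusted p = 3.96e-05, edgeR). Hk1, the constitutive hexokinase, was called lower in AC tumours over sham colon (log2 -0.94, SE 0.331, adjusted p = 0.0405, edgeR), where its groups overlapped, and the call was lost whichever library was left out, except sham sample 1. In model tumours over sham colon its log2 fold change was -0.64 (SE 0.342, adjusted p = 0.138, edgeR).

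The phosphofructokinases, which catalyse the committed step, moved in opposite directions: the muscle form rose, and the liver and platelet forms fell, in tumours against sham colon. Pfkm, the muscle form, had 71.3, 46.3 and 36.9 CPM in AC tumours, 48.3, 51.8 and 46.6 CPM in model tumours, and 3.81, 6.57 and 7.36 CPM in sham colon. Pfkl, the liver form, had 118, 126 and 128 CPM in AC tumours, 129.6, 150.4 and 128 CPM in model tumours, and 178, 578 and 586 CPM in sham colon. Tumour and sham libraries did not overlap for either gene, although sham sample 1 was much nearer to the tumours than the other sham samples for Pfkl. Pfkm was 8.73-fold higher in AC tumours (log2 3.13, SE 0.341, adjusted p = 3.80e-04, edgeR) and 8.40-fold higher in model tumours (log2 3.07, SE 0.252, adjusted p = 1.04e-04, edgeR). Pfkl was 3.55-fold lower in AC tumours (log2 -1.83, SE 0.423, adjusted p = 0.00826, edgeR) and 3.22-fold lower in model tumours (log2 -1.69, SE 0.422, adjusted p = 0.0107, edgeR), calls lost on the FPKM scale (largest adjusted p 0.0671 and 0.0912). Skeletal muscle markers summed to 1.14 to 2.26 CPM in AC tumours, 1.45 to 1.96 CPM in model tumours and 4.25 to 4.88 CPM in sham colon, and the muscle myosin Myh4 was at 0 in every library, so the Pfkm level of tumours did not come with muscle markers. Pfkp, the platelet form, was lower by a smaller amount, at log2 -0.97 (SE 0.137, adjusted p = 0.00107, edgeR) in AC tumours and -0.84 (SE 0.165, adjusted p = 0.00384, edgeR) in model tumours, and kept its sign but not its call without scaling factors.

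Gpi1, which isomerises glucose 6-phosphate, had 419, 468 and 408 CPM in AC tumours, 483, 589.6 and 453 CPM in model tumours, and 562, 893 and 903 CPM in sham colon. Its log2 fold change was -0.86 (SE 0.196, adjusted p = 0.00796, edgeR) in AC tumours and -0.60 (SE 0.215, adjusted p = 0.0415, edgeR) in model tumours, where the groups overlapped, the call was lost whichever model library was left out and without sham sample 2 or 3, and the sign turned to 0.01 without scaling factors. Aldoa, the main aldolase, had 592, 636 and 551 CPM in AC tumours, 631, 819 and 677 CPM in model tumours, and 909, 1322 and 1380.1 CPM in sham colon. It changed by log2 -1.01 (SE 0.178, adjusted p = 0.00259, edgeR) in AC tumours and -0.74 (SE 0.195, adjusted p = 0.0130, edgeR) in model tumours, where the call was lost without model sample 3. Both Aldoa calls were lost without scaling factors, at log2 -0.36 (adjusted p = 0.0880, edgeR) in AC tumours and -0.13 (adjusted p = 0.534, edgeR) in model tumours, and on the FPKM scale. The Gpi1 call in AC tumours was lost in the same settings, at log2 -0.20 (adjusted p = 0.349, edgeR) without scaling factors. Aldoc, the brain aldolase, and Tpi1, which interconverts the triose phosphates, were called lower in AC tumours over sham colon, at log2 -1.24 (adjusted p = 0.0141, edgeR) and -0.42 (adjusted p = 0.0270, edgeR). In model tumours over sham colon their values were -0.49 (adjusted p = 0.327, edgeR) and -0.29 (adjusted p = 0.111, edgeR). The Aldoc call was lost without sham sample 2 or 3, without scaling factors and on the FPKM scale. The Tpi1 call was lost whichever library was left out, except sham sample 1, and its sign turned to 0.23 without scaling factors.

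The lower steps, which return ATP and end in pyruvate, went the other way. In AC tumours over sham colon 4 of 6 genes were called higher and 0 lower, and likewise 4 higher and 0 lower in model tumours. That was 66.7% higher in each comparison, beside 35.5% of all tested genes in AC tumours and 36.8% in model tumours. Eno2, the neuron-type enolase, rose the most of all 38 genes, with 111, 86.5 and 103 CPM in AC tumours, 103, 128 and 128 CPM in model tumours, and 3.65, 3.61 and 2.34 CPM in sham colon. The gene was 31.4-fold higher in AC tumours (log2 4.97, SE 0.258, adjusted p = 4.13e-05, edgeR) and 37.6-fold higher in model tumours (log2 5.23, SE 0.239, adjusted p = 2.01e-05, edgeR). Markers of enteric neurons and glia summed to 2.09 to 2.73 CPM in AC tumours, 1.93 to 2.28 CPM in model tumours and 4.51 to 8.92 CPM in sham colon, so Eno2 was high where those markers were low.

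Pgk1, which makes the first ATP of the pathway, had 849, 891 and 776 CPM in AC tumours, 959, 1301 and 1103 CPM in model tumours, and 432, 445 and 459 CPM in sham colon. Pgam1, the phosphoglycerate mutase, had 338, 379.7 and 261 CPM in AC tumours, 303, 435 and 319 CPM in model tumours, and 80.7, 132 and 140.2 CPM in sham colon. Eno1, the ubiquitous enolase, had 1022, 1071 and 884 CPM in AC tumours, 1068, 1258 and 1138 CPM in model tumours, and 375, 562 and 579.7 CPM in sham colon. Every tumour library exceeded every sham library for all 3 genes. Pgk1 rose by log2 0.91 (SE 0.124, adjusted p = 9.12e-04, edgeR) in AC tumours and 1.34 (SE 0.155, adjusted p = 3.76e-04, edgeR) in model tumours. Pgam1 rose by log2 1.48 (SE 0.231, adjusted p = 0.00162, edgeR) in AC tumours and 1.60 (SE 0.242, adjusted p = 0.00121, edgeR) in model tumours, and Eno1 by 0.98 (SE 0.187, adjusted p = 0.00362, edgeR) and 1.21 (SE 0.190, adjusted p = 0.00141, edgeR) in the same order. Pkm, the pyruvate kinase, was not called in any comparison, at 1367 to 1514 CPM in AC tumours, 1605 to 1903 CPM in model tumours and 1123 to 1853 CPM in sham colon, and the counts do not separate its isoforms. Without scaling factors Pkm was called higher in AC tumours (log2 0.53, adjusted p = 0.0409, edgeR) and model tumours (log2 0.75, adjusted p = 0.0119, edgeR) over sham colon. Its exons share 15.3% of their bases with Gm49759 on the same strand, which held 19337 counts against 265273 for Pkm. Pfkm shares 10.2% of its exon bases with Gm26513 on the same strand (111 counts against 6611), and Gpi1 shares 11.5% with Gm26762 on the opposite strand (473 against 90864). How reads over the shared bases were assigned is not given in the sources used here.

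Gapdh, the glyceraldehyde-phosphate dehydrogenase, cannot be read from its own row. The row held 32.0, 33.6 and 33.6 CPM in AC tumours, 28.9, 34.5 and 31.6 CPM in model tumours, and 19.6, 39.2 and 41.6 CPM in sham colon. Per length, at 3.79 to 9.64 FPKM, the row lay below Pgk1, Pgam1, Eno1 and Pkm in every library, of which Pgam1 was the lowest in sham colon at 35.3 to 54.3 FPKM. In GENCODE M21 transcripts 78 other genes match Gapdh at 95% identity or more over at least 200 bases, and their rows held 136032 counts against 5397 on Gapdh itself. The copy Gm13394 alone held 681 to 777 CPM in AC tumours, 663 to 925 CPM in model tumours and 246 to 582 CPM in sham colon. Gapdh and its copies together came to 939, 921 and 829 CPM in AC tumours, 820.4, 1095 and 951 CPM in model tumours, and 390.0, 724 and 757 CPM in sham colon, with all tumour libraries above all sham libraries. How the counting divided reads between the copies is not given, so the Gapdh values are uncertain. Eno1 is affected less: 3 copies, among them Eno1b and Gm4735, held counts equal to 56.6% of its own, and the sum of gene and copies was 1398 to 1734 CPM in AC tumours, 1649 to 1913 CPM in model tumours and 588 to 946 CPM in sham colon.

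**Figure D3:**
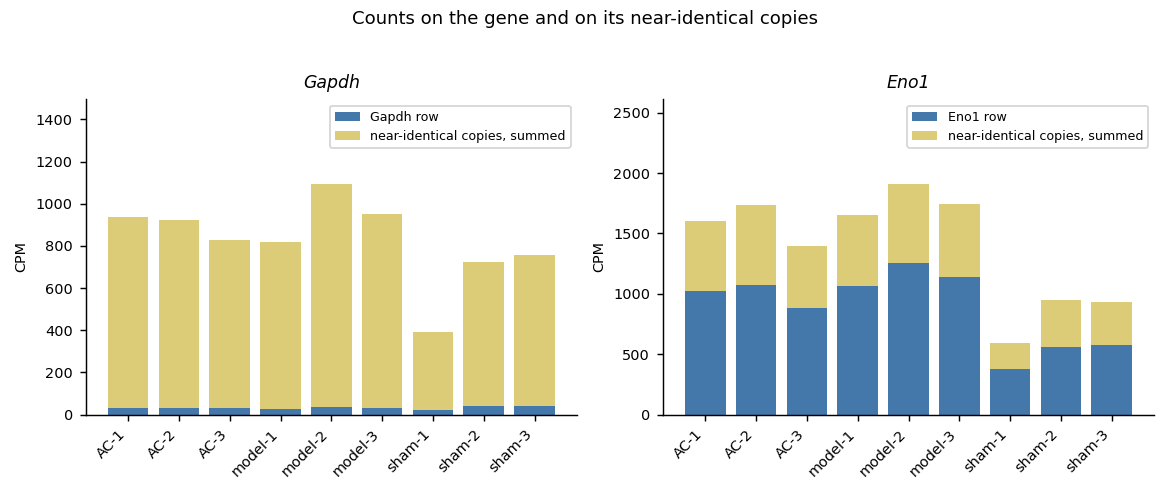
CPM on the Gapdh and Eno1 rows (blue) and summed over their near-identical copies (yellow) in each library, stacked, with AC tumours, model tumours and sham colon from left to right. The Gapdh row is a thin strip of 19.6 to 41.6 CPM under copies that hold 370.4 to 1061 CPM, whereas the Eno1 row is larger than its copies in every library.

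At the branch between lactate and mitochondria, Ldha, the lactate dehydrogenase subunit that favours lactate formation, had 1190.1, 1178 and 1067 CPM in AC tumours, 1119.9, 1437 and 1253 CPM in model tumours, and 1603, 2118 and 2098 CPM in sham colon. Its log2 fold change of -0.75 (SE 0.149, adjusted p = 0.00430, edgeR) in AC tumours was not called without scaling factors, and that of -0.59 (SE 0.168, adjusted p = 0.0174, edgeR) in model tumours was lost whichever model library was left out and turned to 0.02 without scaling factors. Ldhb, the subunit typical of oxidative tissue, was at 0.855, 1.55 and 0.839 CPM in AC tumours, 0.856, 0.637 and 0.726 CPM in model tumours, and 2.25, 5.69 and 7.01 CPM in sham colon. Its groups did not overlap, and it changed by log2 -2.19 (SE 0.504, adjusted p = 0.00806, edgeR) in AC tumours and -2.70 (SE 0.473, adjusted p = 0.00229, edgeR) in model tumours. Pfkfb3 and Pfkfb4, which set the level of the phosphofructokinase activator fructose 2,6-bisphosphate, were called in no comparison. Sham sample 1 had 35.6 CPM of Pfkfb3, against 7.85 and 6.94 CPM in sham samples 2 and 3, so the sham group was not uniform for this gene.

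Levels per length were compared within pairs of related genes as the share of the first gene in their summed FPKM (counts per kilobase and per library total, not corrected by scaling factors). The share is a ratio within a library and does not depend on how libraries are scaled. Each of 36 differences was tested with an exact two-sided permutation test of 3 against 3 libraries. That test cannot give a p below 0.1, before or after adjustment, so none could pass. The smallest adjusted p reached was 0.171, and the sizes and overlaps are what these libraries give. Egln3 made up 6.11, 7.81 and 9.93% of Egln3 and Egln1 in AC tumours, 11.8, 7.02 and 6.50% in model tumours, and 72.4, 66.1 and 67.0% in sham colon. The difference from sham colon was -60.5 percentage points in AC tumours and -60.0 in model tumours, each with groups apart (exact permutation p = 0.1, adjusted 0.171). Within this pair Egln3 held the larger share in sham colon and Egln1 in tumours. Egln2, the other prolyl hydroxylase of this kind, is not in the pair and had 18.0 ± 1.81 FPKM in AC tumours, 16.3 ± 0.446 FPKM in model tumours and 14.1 ± 3.00 FPKM in sham colon (SD, n = 3 each).

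Pfkl made up 45.3, 57.8 and 63.5% of Pfkl and Pfkm in AC tumours, 57.3, 59.2 and 57.8% in model tumours, and 95.9, 97.8 and 97.6% in sham colon. Pfkp made up 20.1, 29.2 and 28.5% of Pfkp and Pfkm in AC tumours, 25.4, 30.5 and 26.6% in model tumours, and 90.4, 82.8 and 82.1% in sham colon. Both tumour groups lay well below sham colon for these pairs. The size of a share depends on the exon lengths used, which were 13401 bases for Pfkp and 3340 for Pfkm in every library. Not divided by length, Pfkp lay above Pfkm in every library. Its levels were 59.0 to 76.7 CPM against 36.9 to 71.3 CPM of Pfkm in AC tumours. In model tumours they were 65.8 to 91.4 CPM against 46.6 to 51.8 CPM. Hk2 made up 59.1% ± 2.38 of Hk2 and Hk1 in AC tumours, 55.7% ± 0.852 in model tumours and 87.6% ± 3.44 in sham colon (SD, n = 3 each). Eno2 made up 10.4% ± 1.76 of Eno2 and Eno1 in AC tumours, 10.6% ± 0.760 in model tumours and 0.763% ± 0.324 in sham colon (SD, n = 3 each). Within this pair Eno1 held the larger share per length in every library. The muscle enolase Eno3, which is not in the pair, had 58.1 ± 12.4 FPKM in AC tumours, 58.1 ± 3.55 FPKM in model tumours and 88.8 ± 12.4 FPKM in sham colon, beside 216 ± 18.6, 246 ± 18.3 and 69.3 ± 11.8 FPKM of Eno1 in the same order (SD, n = 3 each). On its own row, Eno1 lay above Eno3 in every tumour library and below it in every sham library. The near-identical copies of Eno1, which held counts equal to 56.6% of its own, are left out here. Its order with Eno3 in sham colon is therefore uncertain.

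Epas1 made up 13.8, 12.9 and 12% of Epas1 and Hif1a in AC tumours, 11.3, 8.33 and 7.65% in model tumours, and 34.7, 55.9 and 55.4% in sham colon. Bnip3l made up 45.3, 42.6 and 45.2% of Bnip3l and Bnip3 in AC tumours, 38.4, 35.9 and 38.2% in model tumours, and 86.2, 85.8 and 82.5% in sham colon. Between AC and model tumours, 4 of the 12 pairs had groups that did not overlap at p = 0.1 (exact permutation, adjusted 0.171): Bnip3l with Bnip3 (6.86 points higher in AC tumours), Epas1 with Hif1a (3.84 points), Hk2 with Hk1 (3.36 points) and Pfkfb4 with Pfkfb3 (9.08 points). The shares of P4ha2 in the P4ha pair and of Aldoc in the Aldoa pair overlapped between all groups. Ldhb made up under 1% of Ldhb and Ldha in every library, at most 0.277% in AC tumours, 0.161% in model tumours and 0.699% in sham colon.

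**Figure D4:**
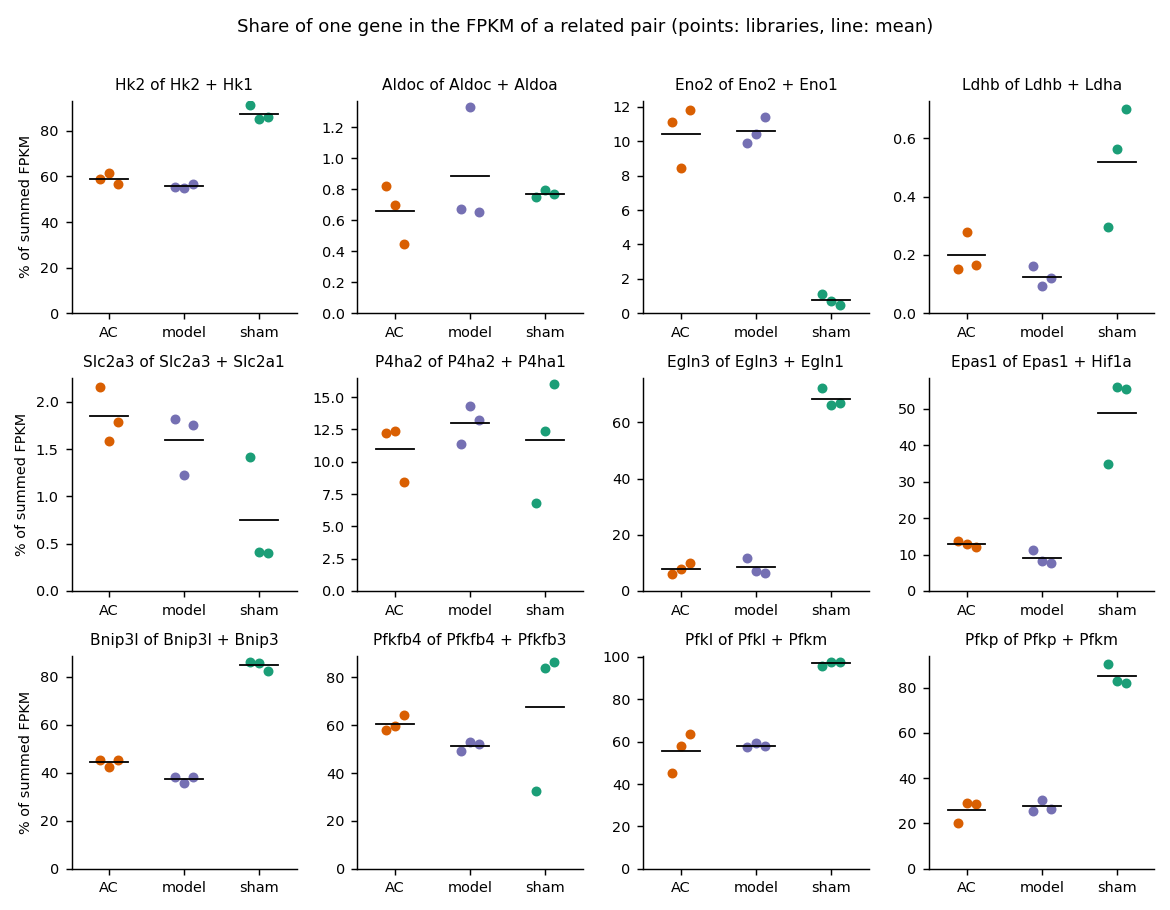
Share of the first gene in the summed FPKM of 12 pairs of related genes (y axes in percent, points are libraries, lines are means), with AC tumours, model tumours and sham colon from left to right. The shares of Hk2, Egln3, Epas1, Bnip3l, Pfkl and Pfkp are larger in sham colon than in both tumour groups, and the scales differ between panels.

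Per length, Pgk1 was the highest of the 38 rows in tumours, with 437 ± 24.5 FPKM in AC tumours and 573 ± 82.6 FPKM in model tumours, against 148 ± 5.44 FPKM in sham colon (SD, n = 3 each). Gapdh and Eno1 enter this order and the shares below by their own rows, without their near-identical copies. Their places in the order are therefore uncertain. In sham colon the highest was Ldha with 434 ± 41.1 FPKM, beside 405 ± 20.7 FPKM in AC tumours and 440.0 ± 51.3 FPKM in model tumours, where the groups lay within their spread on this scale. The 6 lower-glycolysis genes took 0.431, 0.441 and 0.381% of the summed FPKM of all features in AC tumours, 0.452, 0.588 and 0.497% in model tumours, and 0.114, 0.158 and 0.158% in sham colon. The 9 upper-glycolysis genes took 0.210 to 0.229% in AC tumours, 0.229 to 0.287% in model tumours and 0.178 to 0.254% in sham colon. On this scale the lower steps separated tumours from colon and the upper steps did not.

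Expression in tumours against colon compares unlike mixtures of cells, and in bulk samples fewer cells of a type and less RNA per cell cannot be told apart. All 8 epithelial markers were lower in both tumour groups than in sham colon without overlap, none being at 0 in all tumours. Smooth muscle markers summed to 61.8 to 155 CPM in AC tumours, 52.1 to 72.8 CPM in model tumours and 286 to 1878 CPM in sham colon, and macrophage markers to 561 to 929.9 CPM in AC tumours, 476 to 684 CPM in model tumours and 32.4 to 38.3 CPM in sham colon. Endothelial markers summed to 107 to 146 CPM in AC tumours, 131 to 147 CPM in model tumours and 34.5 to 37.9 CPM in sham colon, so Epas1 was lower in tumours although these markers were higher. The part of these mixtures in the changes of the 38 genes was not tested.

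Other genes of the same pathways were read from lists fixed by name. Among all tested genes, 35.5% were called higher and 32.7% lower in AC tumours over sham colon. In model tumours over sham colon these shares were 36.8% and 32.9%. Of 16 tested further glycolytic isozymes and carriers (18 listed), 3 were called higher and 11 lower in AC tumours over sham colon, and 3 higher and 12 lower in model tumours. Hk3, the hexokinase of myeloid cells, had 33.2, 28.7 and 18.0 CPM in AC tumours, 24.2, 25.9 and 37.2 CPM in model tumours, and 0.700, 1.28 and 0.708 CPM in sham colon. Slc16a1, the lactate and butyrate carrier MCT1, had 345, 269.9 and 320.3 CPM in AC tumours, 299, 293 and 257 CPM in model tumours, and 1049.6, 1462 and 1556 CPM in sham colon. The groups did not overlap for either, with log2 fold changes of 4.89 (adjusted p = 1.08e-04, edgeR) in AC tumours and 5.03 (adjusted p = 4.79e-05, edgeR) in model tumours for Hk3, and of -2.11 (adjusted p = 2.12e-04, edgeR) and -2.24 (adjusted p = 1.23e-04, edgeR) for Slc16a1. The lactate carriers MCT4 and MCT1 thus went in opposite directions.

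Of 17 tested genes of pyruvate entry and glucose synthesis (19 listed), 3 were called higher and 12 lower in AC tumours over sham colon, and 3 higher and 11 lower in model tumours. Mpc2, a subunit of the mitochondrial pyruvate carrier, changed by log2 -2.01 (adjusted p = 1.36e-04, edgeR) in AC tumours and -1.98 (adjusted p = 7.69e-05, edgeR) in model tumours, and Pcx, pyruvate carboxylase, by -3.02 (adjusted p = 6.65e-05, edgeR) and -2.94 (adjusted p = 4.78e-05, edgeR). Pck2, the mitochondrial PEP carboxykinase, rose by 2.97 (adjusted p = 6.38e-05, edgeR) in AC tumours and 2.99 (adjusted p = 5.71e-05, edgeR) in model tumours. Of 27 tested further hypoxia genes (28 listed), 10 were called higher and 10 lower in AC tumours over sham colon, and 11 higher and 11 lower in model tumours. Angptl4, an inhibitor of lipoprotein lipase, rose by log2 5.29 (adjusted p = 1.36e-04, edgeR) in AC tumours and 5.69 (adjusted p = 1.96e-05, edgeR) in model tumours. Fam162a, a mitochondrial protein, changed by -3.88 (adjusted p = 2.69e-05, edgeR) and -3.66 (adjusted p = 1.57e-05, edgeR), and Ak4, a mitochondrial adenylate kinase, by -5.11 (adjusted p = 1.06e-04, edgeR) and -5.27 (adjusted p = 4.92e-05, edgeR), in the same order. These shares, 37.0% higher and 37.0% lower in AC tumours and 40.7% each in model tumours, were near those of all tested genes. The split of this list between directions is therefore not particular to hypoxia targets.

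Against model tumours, AC tumours showed slightly lower values of most of the 38 genes, none past the adjusted threshold. The log2 fold change was negative for 32 of 38 genes (84.2%), against 48.6% of all 17137 genes, and the median was -0.23, against 0.01. An unadjusted p under 0.05 was seen for 12 of the 38 genes and for 2253 of all genes (13.1%), and the smallest adjusted p of the 38 was 0.231 (edgeR). In 9 genes all AC libraries lay below all model libraries (background 9.98%), and in 0 genes above (background 9.06%). The 9 were Hk1, Pkm, Pdk1, Pgk1, Pfkfb3, Hif1a, Bnip3, Ankrd37 and Higd1a. The number of negative values stayed between 29 and 33 over all alternatives, the lowest without AC sample 3.

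Pdk1, the kinase that closes the pyruvate dehydrogenase gate under hypoxia, had 51.8, 53.7 and 56.5 CPM in AC tumours and 73.0, 116 and 82.7 CPM in model tumours, beside 71.8, 94.2 and 94.8 CPM in sham colon. The AC libraries were the lowest of the 9 and close together, while model sample 2 was far above the other model samples. The log2 fold change of AC over model tumours was -0.75 (SE 0.164, adjusted p = 0.231, edgeR), and -0.53 without model sample 2 (adjusted p = 0.337, edgeR). With DESeq2, which called 289 of 14372 genes (2.01%), Pdk1 (adjusted p = 0.00231) and Bnip3 (adjusted p = 0.0298) were the only ones of the 38 to pass, both lower in AC tumours. Over sham colon, Pdk1 was called lower in AC tumours (log2 -0.68, SE 0.139, adjusted p = 0.00501, edgeR), though not without scaling factors, and stood at 0.08 in model tumours (SE 0.197, adjusted p = 0.740, edgeR), where it was called higher without scaling factors (log2 0.69, adjusted p = 0.0157, edgeR).

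Bnip3 differed between AC and model tumours by log2 -0.59 (SE 0.161, adjusted p = 0.257, edgeR), and Pgk1 by -0.42 (SE 0.118, adjusted p = 0.257, edgeR). Higd1a stood at -0.35 (SE 0.111, adjusted p = 0.283, edgeR) and Hk1 at -0.29 (SE 0.102, adjusted p = 0.301, edgeR), with 108, 106 and 102 CPM in AC tumours and 130.4, 145 and 112 CPM in model tumours. On the positive side the smallest p belonged to Epas1 (log2 0.37, SE 0.178, adjusted p = 0.416, edgeR) and Ldhb (0.53, SE 0.371, adjusted p = 0.562, edgeR). Pfkfb4 stood at 0.17 (adjusted p = 0.666, edgeR), Gapdh at 0.06 (adjusted p = 0.827, edgeR) and P4ha1 at 0.04 (adjusted p = 0.883, edgeR), and the signs of Gapdh and P4ha1 turned when libraries were left out. None of these differences between AC and model tumours passed the adjusted threshold.

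**Figure D5:**
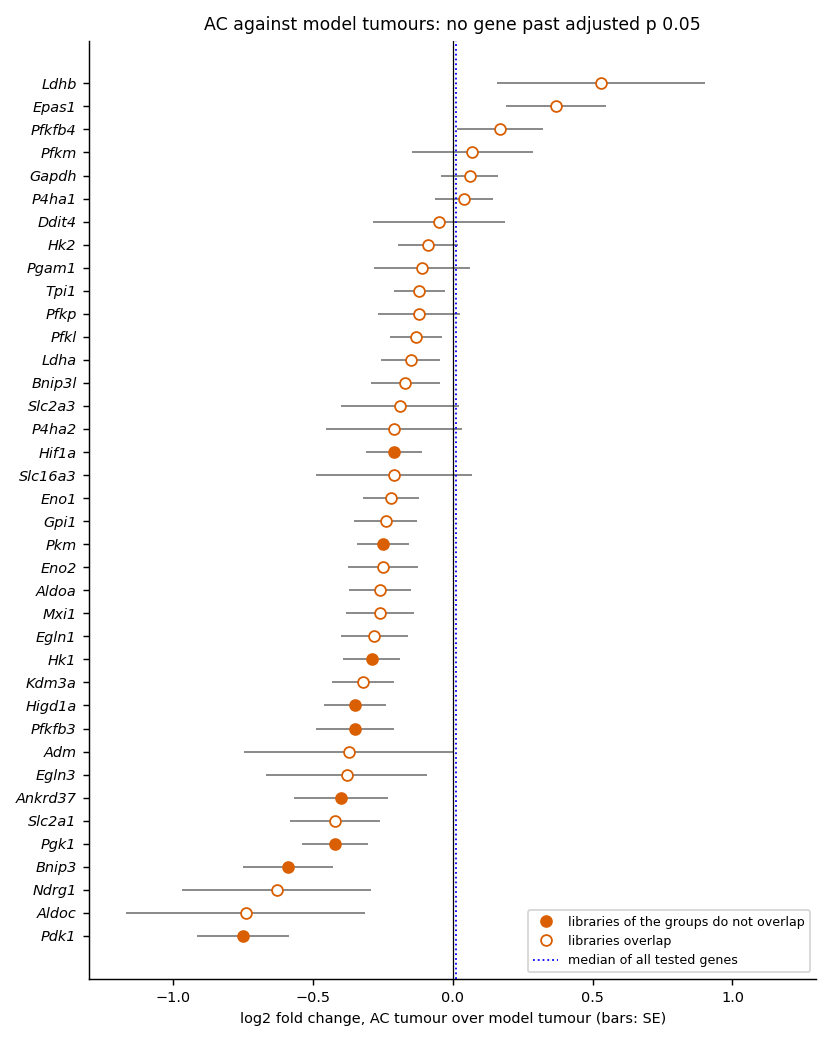
Log2 fold changes of the 38 genes in AC tumours over model tumours (x axis, bars are SE, 3 libraries per group), sorted by value, with filled points where the libraries of the groups do not overlap and a dotted line at the median of all tested genes. Of the 38 points 32 lie below 0, the filled ones are 9, and no gene passed an adjusted p of 0.05 in edgeR.

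Single libraries moved with this pattern. Model sample 2 was the highest model sample for 28 of the 38 genes (35.3% of 15956 genes), and AC sample 3 the lowest AC sample for 30 of the 38 (41.1% of all genes). Without AC sample 3, the test of all genes called 150 higher and 419 lower in AC tumours, and still none of the 38. Fibroblast markers were lower in AC tumours (sums 1097, 1059 and 1299 CPM) than in model tumours (1681, 1423 and 1425 CPM) without overlap of the sums, with 3 of 5 markers apart. Epithelial markers were highest in AC sample 3 and model sample 1. Without those libraries 32 of the 38 values were still negative and 0 genes of the 38 were called. The part of fibroblast content in the pattern was not tested.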

How the data were processed

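Per the labels, RNA was extracted with Trizol and sequenced on Illumina from libraries of the VAHTS Universal V6 kit. The authors deposited raw gene counts (featureCounts 1.5.0-p3, build mm9, per the submitters' processing notes) and FPKM values computed from them. The aligner and the strand setting were not given in the sources used here. Gene lengths implied by counts and FPKM equal the exon sums of GENCODE M21 (build GRCm38) for all of the 38 genes except Pgam1, Epas1 and Mxi1, so symbols and coordinates here follow GRCm38. Where a symbol had more than 1 identifier, the one with more counts was used.

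Counts were tested with edgeR 4.0.16 in R 4.3.3 (TMM, filterByExpr, robust glmQLFit, glmQLFTest, Benjamini-Hochberg over all genes, threshold 0.05), each comparison on its own 6 libraries and without covariates, after a check on simulated counts. Printed CPM use TMM factors over all 9 libraries. FPKM serve levels per length and pair shares. Alternatives were RLE, upper-quartile and no scaling factors, DESeq2 1.42.0, no filter, 1 fit of all libraries, a replicate block, limma 3.58.1 on log2(FPKM + 1) and log2(FPKM + 0.1), and left-out libraries. Precision is set by the depths of 15690038 to 23476056 counts; floors cover counting error only, because reads carrying no molecular identifier need not be independent. All libraries differed from each other. Full values are given for up to 8 called genes per direction by size of change, or for the 5 of smallest p in each direction where fewer than 3 were called, and for up to 3 genes per further list; other genes of the 38 are given by role. The genes and lists were chosen with earlier results of these data known.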

Additional observations from a re-analysis of the deposited data

How the results depend on the processing

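The higher calls ran between 10 and 14 of the 38 genes in AC tumours and between 11 and 14 in model tumours over sham colon. Without scaling factors the share of all tested genes called higher went from 35.5% to 49.5% in AC tumours and from 36.8% to 49.7% in model tumours. The share called lower went from 32.7% to 23.1% and from 32.9% to 24.2% in the same order. Lower calls of the 38 genes also depended on scaling. Without scaling factors, with 1 FPKM added and with 0.1 FPKM added they were 9, 8 and 8 in AC tumours (20 as reported). In model tumours they were 8, 7 and 7 (13 as reported), since FPKM carry no scaling factors. Under these 3 settings Gpi1 turned to 0.01, 0.02 and 0.02 and Ldha to 0.02, 0.02 and 0.02 in model tumours, Tpi1 turned to 0.23 each time in AC tumours, and Hif1a turned to 0.02 on both FPKM scales in AC tumours. The further hypoxia list then had 6 lower calls in AC tumours (10 as reported) and 6, 7 and 6 in model tumours (11 as reported), and the pyruvate list up to 5 higher calls (3 as reported). With single libraries left out, lower calls ran from 15 to 24 in AC tumours and from 10 to 17 in model tumours. Without sham sample 1, which gave 24 and 17, 36.9% and 36.4% of all tested genes were called lower. Whether the replicate numbers mark paired samples is not known. Deviations of same-numbered samples from their group means were correlated at -0.493 to 0.409. This cannot decide the question, because the 3 deviations of a group are tied through their own mean. With the replicate number as a block, calls were 11 higher and 17 lower in AC tumours and 11 higher and 12 lower in model tumours over sham colon, and 0 between AC and model tumours.

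Between AC and model tumours, DESeq2 called 0 of the 38 genes higher and 2 lower, and 76 of all genes higher and 213 lower; without the filter 23 and 82 of all genes were called, without AC sample 3 150 and 419, and without model sample 1 and AC sample 3 together 14 and 80, where the cause was not tested. Gapdh turned to -0.02 without those samples together and P4ha1 to -0.04 without model sample 1 (range -0.04 to 0.14 with single libraries left out). Of the pair shares, P4ha2 turned to -5.20 points in model tumours over sham colon with 1 FPKM added. With single libraries left out, differences in points ran from -3.21 to 1.41 for P4ha2 in AC tumours and -1.26 to 3.35 in model tumours, from -0.109 to 0.230 for Aldoc in model tumours and from -24.6 to 2.21 for Pfkfb4 in AC tumours, each over sham colon. Between AC and model tumours they ran from -1.48 to 1.19 for Egln3, from -0.810 to 0.862 for Eno2, from -6.61 to 2.52 for Pfkl and from -3.20 to 1.38 for Pfkp, and these directions are not established. Lowly counted genes such as Ldhb and Slc2a3 are limited by depth.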

Other observations

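Genes that set the entry of pyruvate into mitochondria moved in tumours beside Pdk1, and were singled out after their values were seen. Pdk4, a kinase that shuts pyruvate dehydrogenase during fasting, had 0.380, 0.553 and 0.262 CPM in AC tumours, 0.707, 0.0909 and 0.259 CPM in model tumours, and 13.8, 42.1 and 39.5 CPM in sham colon. Pdp1, the phosphatase that reopens the enzyme, had 41.5, 35.6 and 39.7 CPM in AC tumours, 42.1, 43.0 and 44.3 CPM in model tumours, and 11.3, 5.69 and 7.50 CPM in sham colon. Pdk4 was lower and Pdp1 higher in every tumour library than in sham colon, with Pdk4 near the floor of detection in tumours. The other phosphatase, Pdp2, was called in neither comparison, at log2 0.32 (adjusted p = 0.132, edgeR) in AC tumours and -0.03 (adjusted p = 0.886, edgeR) in model tumours. Without scaling factors it was called higher in both. Of the further kinases, Pdk2 was called lower in both (log2 -4.80 and -4.84), and Pdk3 in AC tumours only (-0.46 and -0.34), a call lost without scaling factors. Pdp1 rose by log2 2.25 (SE 0.298, adjusted p = 8.31e-04, edgeR) in AC tumours and 2.41 (SE 0.286, adjusted p = 4.47e-04, edgeR) in model tumours, and Pdha1, the catalytic subunit of pyruvate dehydrogenase, by 1.14 (SE 0.165, adjusted p = 0.00119, edgeR) and 1.29 (SE 0.136, adjusted p = 2.68e-04, edgeR), each over sham colon. The other subunits of the complex went against Pdha1: Pdhb, Dlat, Dld and Pdhx were called lower in both comparisons, at log2 -1.05, -0.94, -1.21 and -0.66 in AC tumours and -1, -0.78, -1.20 and -0.62 in model tumours (adjusted p up to 0.0145, edgeR). Without scaling factors Pdhb and Dld kept these calls, and Dlat and Pdhx did not. Pdk4 changed by -6.28 (SE 0.563, adjusted p = 1.82e-04, edgeR) in AC tumours and -6.36 (SE 0.769, adjusted p = 4.77e-04, edgeR) in model tumours.

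Car9, the hypoxia-induced carbonic anhydrase IX, was not among the 38 genes. It had 11.4, 11 and 10.2 CPM in AC tumours, 20.3, 35.1 and 30.4 CPM in model tumours, and 59.0, 89.6 and 91.5 CPM in sham colon. The 3 groups did not overlap, and AC tumours stood at log2 -1.40 over model tumours (SE 0.195, adjusted p = 0.103, edgeR). No gene tested in that comparison had a smaller adjusted p. The adjustment can give the same value to several genes, so Car9 need not rank first. Car9 was the 1 gene of the further hypoxia list called under DESeq2, without the filter, without AC sample 3, and without model sample 1 and AC sample 3 together.

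The second identifier named Aldoa in GENCODE M21 lies next to the main one on chromosome 7, from 126800790 to 126809108 on GRCm38. It had 2.19, 3.10 and 1.78 CPM in AC tumours, 2.90, 4 and 2.13 CPM in model tumours, and 0, 0.481 and 0.637 CPM in sham colon. Its direction was opposite to that of the main Aldoa row, at log2 2.63 (SE 0.775, adjusted p = 0.0213, edgeR) in AC tumours and 3.01 (SE 0.772, adjusted p = 0.0118, edgeR) in model tumours over sham colon, on few counts.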
